A study of Mus musculus with 12 samples.

Results

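The overexpression of lncRNA5251, a long non-coding RNA, was studied in C18-4 cells, an immortalized mouse line derived from type A spermatogonia that is used as a model of spermatogonial stem cells. The C18_5251OV cells carried the full length of lncRNA5251 in the lentiviral vector LV5, and the C18_5NC cells carried LV5 without that insert. Both were stable transfectants of the same line, whose strain the labels give as IRC mouse, and each group had 3 libraries. The groups follow the labels and the article's methods, which head the cell experiment with lncRNA5251. The supplementary methods head it with the name of another transcript, lncRNA8276. Both call the overexpression constructs shRNAs. The series of 12 libraries also holds a knockdown (C18_5251KD) and its vector control (C18_3NC) in the vector LV3, which share no library with this comparison. The comparison took every gene with at least 1 RPKM (read counts scaled by transcript length and by the mapped reads of the library) in at least 3 of the 6 libraries, which left 11149 of the 17576 genes in the table. Differences are those of the group means of log2(RPKM + 1), C18_5251OV minus C18_5NC, tested with limma with Benjamini-Hochberg adjustment, and a gene was called at an adjusted p of at most 0.05. No source states that the 3 libraries of a group came from separate cultures, so the p-values measure the spread between these libraries, which may be technical.

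A long non-coding RNA is transcribed like a messenger RNA but makes no known protein, and such transcripts act in many ways on chromatin, on other RNAs or on proteins. Some gene programmes are switched as a unit. The unfolded protein response raises the folding machinery of the endoplasmic reticulum (ER), where secreted and membrane proteins are made, and the interferon response keeps a set of antiviral genes under the control of a few transcription factors. In the testis, junction and matrix proteins hold the germ cells and the Sertoli cells together, and the study asked about these genes after lncRNA5251 was changed.

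lncRNA5251 has no entry in the expression table, so its own level was not analysed here. The defining germ line genes were near 0 in all 6 libraries, with a highest value of 0.17 RPKM for Gfra1, 0.04 for Zbtb16, 0.04 for Dazl and 0.07 for Ddx4, and 0 for Ret and Pou5f1. Of the defining genes of Leydig cells, Cyp17a1 was at 0 and Star at 0.95 to 1.31 RPKM, and the 6 Leydig cell markers in the table summed to 32.6 to 34.5 RPKM in C18_5NC and 32.9 to 35.3 in C18_5251OV (exact permutation p = 0.7). Those of blood and endothelial cells were near 0 (Ptprc at most 0.07, Cdh5 at most 0.02 RPKM), while Wt1, a Sertoli cell marker, stood at 51.5 to 57.5 RPKM beside at most 0.03 RPKM for Sox9. The summed RPKM of the marker lists was 387 to 397 in C18_5NC and 370.1 to 387 in C18_5251OV for 19 spermatogonial markers in the table, most of it from the integrin subunit Itgb1 (242 to 296 RPKM) (exact permutation p = 0.1, the smallest that 3 against 3 libraries allow), 71.8 to 73.21 and 73.25 to 77.1 for 15 Sertoli cell markers (exact permutation p = 0.1), 6.36 to 7.03 and 4.65 to 5.5 for 19 markers of later germ cells (exact permutation p = 0.1), and 738 to 747 and 725 to 760 for 13 myoid and fibroblast markers (exact permutation p = 0.8). Their part in the results was not tested, and in bulk RNA fewer cells of a type and less RNA per cell cannot be told apart.

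One library stood apart. C18_5251OV replicate 3 correlated with C18_5251OV replicates 1 and 2 at a Spearman coefficient of 0.992 and 0.995 over the tested genes and with the C18_5NC libraries at 0.995 to 0.996, against 0.997 between those 2 and 0.997 to 0.998 among the C18_5NC libraries. On the first principal component, which held 60.6% of the variance, the C18_5NC libraries lay at -7.47 to -10.8, C18_5251OV replicates 1 and 2 at 16.3 and 11.97, and replicate 3 at -0.58. The summed RPKM was 533099 to 539746 in C18_5NC, 580920 and 566543 in C18_5251OV replicates 1 and 2, and 537526 in replicate 3. Read depth is unknown, since the table gives no counts. Most counts of the lists and some values of single genes are therefore given with and without replicate 3. The fit without it is of 2 against 3 libraries.

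Of the 11149 genes, 627 were higher (5.62%) and 877 lower (7.87%) in C18_5251OV, 13.5% in all, and 3865 had an unadjusted p under 0.05. The changes were small. The median absolute log2 difference of the called genes was 0.30, and 1400 of the 1504 lay under 0.5. Scaling moved the split, to 718 higher and 571 lower with quantile normalization and to 850 and 630 with median centring. Leaving out C18_5251OV replicate 3 raised the calls to 2074 higher and 2671 lower (18.6% and 24%, 42.6% in all), which included all 1504. Every gene written below as having risen or fallen was therefore called without it too. Leaving out any other library lowered them: 114 and 85, 66 and 57, and 68 and 54 without C18_5NC replicates 1, 2 and 3, and 207 and 262 and 57 and 61 without C18_5251OV replicates 1 and 2. In all 6 of these fits 94 genes were called (0.843% of those tested), 54 higher and 40 lower. The libraries of the groups did not overlap for 1657 genes that were higher (14.9%) and 2473 that were lower (22.2%), 37% of those tested. A fit on all 12 libraries, which share 1 estimate of the spread, called 925 higher (8.3%) and 1594 lower (14.3%), 22.6% in all.

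The folding machinery of the ER was higher in all 3 libraries of C18_5251OV than in C18_5NC. Of 23 tested genes for ER chaperones and stress sensors, 13 rose and 0 fell, beside 5.62% of all genes called higher. Their median log2 difference was 0.23, against -0.03 for all genes, and the medians of C18_5251OV replicates 1, 2 and 3 were 0.21, 0.24 and 0.25 above the C18_5NC mean. Without replicate 3, 15 rose and 3 fell, beside 18.6% and 24% of all genes. Of the 13, 9 kept their call in all 6 fits that left out a library.

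Some promoters of these genes hold a known sequence. Those of 4 genes of the list are shown, with that of Derl3, a gene outside the list that holds it too. The ER stress response element (ERSE, letters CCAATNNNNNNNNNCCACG, searched on both strands from 250 bases before to 50 after each start in RefSeq) is the element through which ATF6 and NF-Y act on chaperone genes. It was found in 17 of the 8989 tested genes with a promoter sequence (0.189%), in 8 of 20 genes of the ER list (40%) and in 6 of its 11 called genes with a sequence (54.5%). The shorter ERSE-II (ATTGGNCCACG), which shares the last 5 letters, was found in 9 genes (0.1%), and no gene held both. Of the 9, 2 were called higher (Dnajb11 and Rcl1) and 2 lower (Lgalsl, -0.33, and Rbm39, -0.24). The other 5 were not called, Herpud1 of the ER list (0.07) among them. The 250 bases before the start of 5 genes called higher follow, 5′ to 3′ on the strand of the gene from RefSeq on GRCm38.p6, with the element in capitals.

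Hspa5, chr2:34771840-34772089, plus strand: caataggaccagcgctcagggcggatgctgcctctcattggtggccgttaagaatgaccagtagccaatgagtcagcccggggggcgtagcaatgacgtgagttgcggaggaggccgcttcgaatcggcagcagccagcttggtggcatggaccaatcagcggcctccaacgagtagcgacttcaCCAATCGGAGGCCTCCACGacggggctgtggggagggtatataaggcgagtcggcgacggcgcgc
Creld2, chr15:88819396-88819645, plus strand: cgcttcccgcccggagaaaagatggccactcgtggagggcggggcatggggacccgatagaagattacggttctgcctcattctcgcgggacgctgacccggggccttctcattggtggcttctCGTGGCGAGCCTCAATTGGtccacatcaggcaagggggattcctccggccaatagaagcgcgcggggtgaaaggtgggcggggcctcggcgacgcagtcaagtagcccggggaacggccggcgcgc
Pdia6, chr12:17266339-17266588, plus strand: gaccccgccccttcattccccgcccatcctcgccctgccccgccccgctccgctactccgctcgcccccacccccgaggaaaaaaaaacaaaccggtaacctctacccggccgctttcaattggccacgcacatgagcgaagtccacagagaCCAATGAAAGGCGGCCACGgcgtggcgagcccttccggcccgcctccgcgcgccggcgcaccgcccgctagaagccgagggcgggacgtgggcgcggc
Hsp90b1, chr10:86705445-86705694, minus strand: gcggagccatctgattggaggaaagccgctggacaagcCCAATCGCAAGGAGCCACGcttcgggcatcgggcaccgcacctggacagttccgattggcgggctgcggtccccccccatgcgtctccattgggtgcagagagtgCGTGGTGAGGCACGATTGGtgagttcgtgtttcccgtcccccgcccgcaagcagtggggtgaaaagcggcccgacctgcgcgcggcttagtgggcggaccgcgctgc
Derl3, chr10:75893148-75893397, plus strand: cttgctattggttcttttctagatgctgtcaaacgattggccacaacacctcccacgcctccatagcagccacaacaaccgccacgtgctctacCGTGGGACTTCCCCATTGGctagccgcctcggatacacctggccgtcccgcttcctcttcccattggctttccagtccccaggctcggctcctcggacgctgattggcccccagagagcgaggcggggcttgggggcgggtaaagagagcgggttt

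In Hspa5 the element lay at positions -65 to -47 before the start, in Pdia6 at -98 to -80, and in Creld2 and Derl3, on the other strand, at -126 to -108 and -156 to -138. Hsp90b1 held it on both strands, at -212 to -194 and at -107 to -89. Of the 17 genes with the element, 7 were called higher (Hspa5, Creld2, Pdia6, Hsp90b1, Derl3, Calr and Dnajc3) and 10 were not called. Among the latter were Canx (-0.01), Syvn1 (0.14) and Alg12 (0.28, limma adjusted p = 0.051). The median log2 difference of the 17 was 0.14. A match is a description of the letters and not a measured binding site.

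Hspa5, the main Hsp70 chaperone of the ER, had RPKM of 499, 523 and 503 in C18_5NC replicates 1 to 3 and 725, 786 and 805 in C18_5251OV replicates 1 to 3. All 3 libraries of C18_5251OV lay above all 3 of C18_5NC, and replicate 3 was the highest. The log2 difference was 0.60 ± 0.06 (SE, n = 3 and 3, limma adjusted p = 0.0013), and 0.57 without replicate 3. Calr, a lectin chaperone that binds calcium, stood at 1049, 1062 and 1049 RPKM in C18_5NC and at 1541, 1554 and 1479 in C18_5251OV, a log2 difference of 0.53 ± 0.05 (limma adjusted p = 0.0016) and 0.55 without replicate 3. Manf, a secreted protein that binds Hspa5, had 50.8, 48.4 and 48.1 RPKM in C18_5NC and 90.2, 83.3 and 79.8 in C18_5251OV. Its log2 difference of 0.77 ± 0.06 (limma adjusted p = 0.00021) was the largest of the ER list, and was 0.81 without replicate 3. Neither gene overlapped between the groups.

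Creld2, a secretory protein made under ER stress, stood at 97.9, 96.7 and 97.0 RPKM in C18_5NC and 168, 163 and 156 in C18_5251OV (0.73 ± 0.05, limma adjusted p = 0.00013). Sdf2l1, a partner of the ER chaperone cycle, had 60.4, 55.6 and 59.2 RPKM in C18_5NC and 103, 91.8 and 88.3 in C18_5251OV (0.68 ± 0.06, limma adjusted p = 0.0013). In both genes the 3 libraries of C18_5251OV lay well above those of C18_5NC and close to each other. In the cells with LV3, outside this comparison, mean RPKM of Creld2 was 149 in C18_3NC and 144 in C18_5251KD. The same means were 75.0 and 64.0 for Sdf2l1 and 96.2 and 79.4 for Manf. C18_5NC thus had the lowest mean of all groups of the series in each of these genes. The other called members of the list were the J-domain cochaperones Dnajb11 (0.51) and Dnajc3 (0.23), the disulphide isomerases Pdia6 (0.44), Pdia4 (0.38), Pdia3 (0.23) and P4hb (0.20), the nucleotide exchange factor Hyou1 (0.43) and Hsp90b1 (0.32), the Hsp90 of the ER. Of these, Pdia3 ran from 678 to 692 RPKM in C18_5NC and from 795 to 819 in C18_5251OV.

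**Figure D1:**
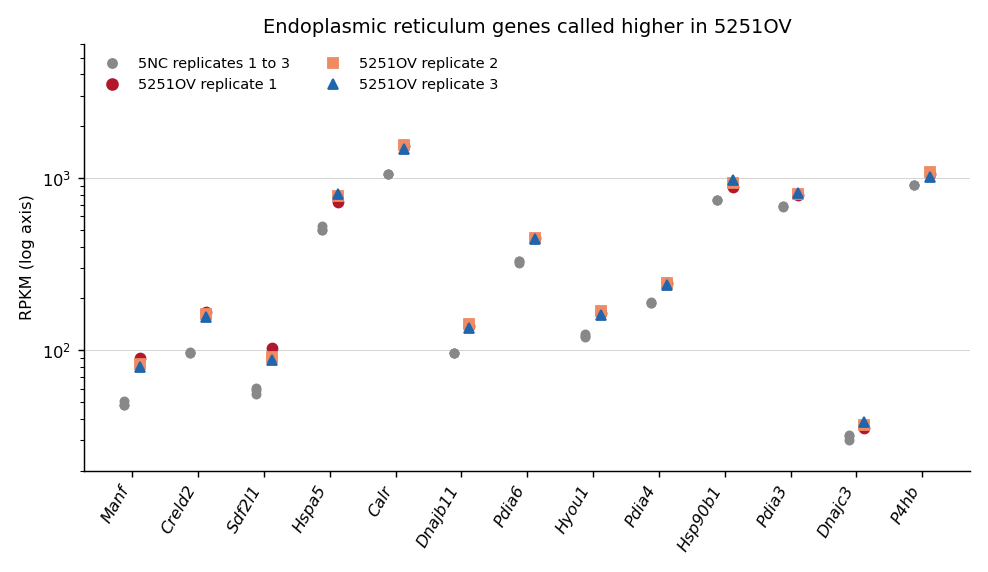
RPKM on a log axis of the 13 endoplasmic reticulum genes called higher, in each library (grey circles C18_5NC replicates 1 to 3, coloured symbols C18_5251OV replicates 1 to 3). In every gene the 3 libraries of C18_5251OV lie above the 3 of C18_5NC, as for Hspa5 at 725 to 805 against 499 to 523 RPKM.

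The 3 stress sensors and Xbp1 were not called. Xbp1, whose spliced form drives part of the response, stood at 40.8 to 43.0 RPKM in C18_5NC and 39.9 to 41.6 in C18_5251OV, a log2 difference of -0.03 ± 0.05. The sensors were Eif2ak3 (-0.02), Atf6 (-0.11) and Ern1 (-0.39, limma adjusted p = 0.08). Ern1 had 8.93, 9.37 and 9.92 RPKM in C18_5NC and 5.81, 6.14 and 9.32 in C18_5251OV, so that only replicates 1 and 2 were low. Without replicate 3 its difference was -0.58 (limma adjusted p = 0.00019), and Dnajb9 and Atf6 were also called lower. Of 27 tested targets of ATF4, the factor of the amino acid branch, 1 rose and 6 fell, beside 5.62% and 7.87% of all genes. Without replicate 3, 4 rose and 7 fell, near the 18.6% and 24% of all genes. The one that rose was Ddit3 (CHOP), at 107, 103 and 108 RPKM in C18_5NC and 153, 147 and 128 in C18_5251OV (0.43 ± 0.07, limma adjusted p = 0.008). Those that fell were Vldlr (-0.49), Fgf21 (-0.44), Slc7a11 (-0.37), Cebpg (-0.32), Pycr1 (-0.29) and Asns (-0.21), while Atf4 itself did not pass the test (0.08).

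Many interferon-stimulated genes were lower in C18_5251OV. Of 38 tested, 17 fell and 0 rose, beside 7.87% of all genes called lower, with a median log2 difference of -0.28. The medians of C18_5251OV replicates 1, 2 and 3 were -0.28, -0.24 and -0.28, so replicate 3 did not stand apart here. Without it, 23 fell and 1 rose, beside 24% and 18.6% of all genes. With all 6 libraries and after correction for transcript length and GC content, 24 fell and 0 rose, beside 12.3% and 7.1%. Only Irf7 and Usp18 kept their call in all 6 fits that left out a library.

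Some of their promoters hold a known sequence as well. The letters GAAANNGAAA are the core of the element that interferon regulatory factors bind. They were found on either strand in 318 of the 8989 promoters (3.54%), in 15 of 31 promoters of the interferon list (48.4%) and in 9 of 13 of its called genes with a sequence (69.2%). The 250 bases before the start of 4 called genes follow, from RefSeq on GRCm38.p6, with the matches in capitals.

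Ifit1, chr19:34640639-34640888, plus strand: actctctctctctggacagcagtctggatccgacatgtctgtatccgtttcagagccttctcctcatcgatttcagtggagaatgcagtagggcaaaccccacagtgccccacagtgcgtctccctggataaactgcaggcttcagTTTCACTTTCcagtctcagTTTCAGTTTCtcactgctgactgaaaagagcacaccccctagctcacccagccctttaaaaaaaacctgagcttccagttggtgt
Isg15, chr4:156200819-156201068, minus strand: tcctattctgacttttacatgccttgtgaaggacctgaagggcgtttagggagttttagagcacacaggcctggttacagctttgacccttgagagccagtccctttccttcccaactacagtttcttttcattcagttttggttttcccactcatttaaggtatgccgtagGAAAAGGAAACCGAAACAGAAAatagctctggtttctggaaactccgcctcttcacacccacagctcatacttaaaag
Gbp3, chr3:142559794-142560043, plus strand: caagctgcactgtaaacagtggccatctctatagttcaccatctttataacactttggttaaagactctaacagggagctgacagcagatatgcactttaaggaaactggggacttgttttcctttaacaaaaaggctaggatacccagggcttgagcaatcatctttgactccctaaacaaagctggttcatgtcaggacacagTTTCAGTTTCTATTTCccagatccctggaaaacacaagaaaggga
Rsad2, chr12:26456453-26456702, minus strand: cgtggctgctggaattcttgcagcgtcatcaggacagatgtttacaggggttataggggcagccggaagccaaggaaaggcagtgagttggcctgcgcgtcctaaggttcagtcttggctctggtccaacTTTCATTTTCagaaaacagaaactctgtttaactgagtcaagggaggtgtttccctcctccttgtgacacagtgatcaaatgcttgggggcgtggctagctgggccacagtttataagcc

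Ifit1 held 2 matches, at -104 to -95 and -85 to -76, and Isg15 held 3 that overlap each other, from -78 to -57. In Gbp3 the 2 matches also overlap, from -45 to -30. No match was found in the window of Irf7, and Usp18 had no sequence in the promoter table.

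Irf7, a transcription factor that amplifies the interferon response, had RPKM of 6.96, 6.78 and 6.04 in C18_5NC and 3.79, 3.63 and 3.15 in C18_5251OV. The groups did not overlap, and replicate 3 was the lowest library. The log2 difference was -0.75 ± 0.08 (limma adjusted p = 0.0027), and -0.69 without replicate 3. Usp18, which removes ISG15 from proteins and dampens the receptor, stood at 3.85, 4.02 and 3.46 RPKM in C18_5NC and 2.12, 2.36 and 2.36 in C18_5251OV (-0.54 ± 0.08, limma adjusted p = 0.0068). Ifit1, which binds viral RNA, had 4.12, 3.79 and 4.10 RPKM in C18_5NC and 1.98, 1.99 and 2.90 in C18_5251OV (-0.62 ± 0.11, limma adjusted p = 0.013). In Ifit1 replicate 3 lay between the other 2 libraries and C18_5NC.

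Among more abundant members, Ifi27 stood at 75.1, 81.8 and 73.2 RPKM in C18_5NC and 62.4, 56.6 and 48.7 in C18_5251OV (-0.45 ± 0.08, limma adjusted p = 0.014). Ifitm3, a membrane protein that blocks virus entry, had 154, 160 and 171 RPKM in C18_5NC and 143, 143 and 121 in C18_5251OV (-0.26). In both genes replicate 3 was the lowest of the 6 libraries. Isg15, the ubiquitin-like modifier, ran from 39.8 to 44.4 RPKM in C18_5NC and from 33.98 to 37.3 in C18_5251OV (-0.23). The RNA sensor Ddx58 (RIG-I) fell by 0.33 on the log2 scale. Members that were not called included Irf9 (-0.14), Stat2 (-0.06), Bst2 (-0.03), Ifitm2 (0.02) and Irf1 (0.13). Ifi27l2a, an interferon-induced gene outside the list, was among the 10 largest falls, with 4.26, 5.19 and 3.57 RPKM in C18_5NC and 3.05, 1.92 and 1.37 in C18_5251OV (-0.80 ± 0.18, limma adjusted p = 0.024).

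**Figure D2:**
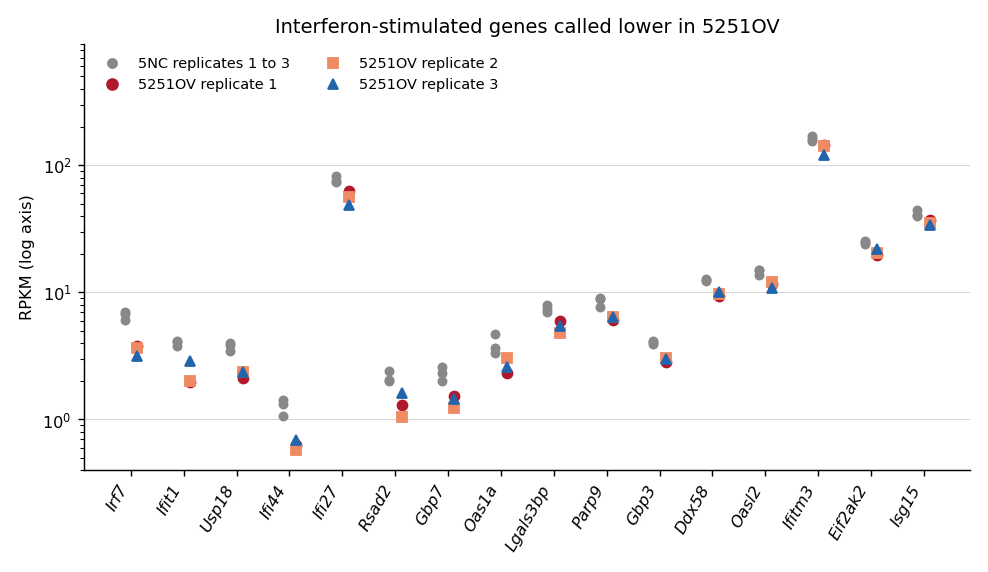
RPKM on a log axis of 16 of the 17 interferon-stimulated genes called lower, in each library (grey circles C18_5NC, coloured symbols C18_5251OV). The 3 libraries of C18_5251OV lie below the 3 of C18_5NC in each gene, as for Irf7 at 3.15 to 3.79 against 6.04 to 6.96 RPKM.

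Some genes of antigen presentation on MHC class I were lower too. Of 16 tested, 5 fell and 0 rose (median log2 difference -0.23), beside 7.87% and 5.62% of all genes, and 7 fell and 1 rose without C18_5251OV replicate 3, beside 24% and 18.6%. Here replicate 3 was the farthest from C18_5NC, with a median of -0.29 against -0.09 and -0.16 in replicates 1 and 2. The peptide transporter subunits Tap2 and Tap1 fell by 0.36 and 0.28 on the log2 scale, and the trimming enzyme Erap1 fell by 0.47. H2-Q4, a member of a family of near-identical genes whose reads the counting could split, had 50.6, 46.7 and 49.1 RPKM in C18_5NC and 37.3, 40.4 and 39.2 in C18_5251OV (-0.32 ± 0.05, limma adjusted p = 0.011). B2m, the light chain of all class I molecules, did not pass the test (0.01), and H2-K1 (-0.12) and H2-D1 (-0.18) did not either.

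C3, the central protein of complement, was among the 10 largest falls. It stood at 57.9, 59.7 and 57.1 RPKM in C18_5NC and 33.9, 34.1 and 31.5 in C18_5251OV, with no overlap and replicate 3 the lowest. The log2 difference was -0.80 ± 0.05 (limma adjusted p = 0.00013), and -0.76 without replicate 3. C2 (-0.47), C1ra (-0.41) and C1s1 (-0.40), of the same system, were named after their values were seen, no list of complement genes having been counted. Each of the 3 fell and kept the call with each library left out. Ccl5, a chemokine that interferon and NF-kB signals induce, had 33.6, 39.1 and 38.9 RPKM in C18_5NC and 25.6, 20.7 and 22.1 in C18_5251OV (-0.69 ± 0.08, limma adjusted p = 0.0035). In the list of TNF, IL-17 and NF-kB genes, 3 of 30 rose and 3 fell (20% called, beside 13.5% of all genes), and 7 rose and 3 fell without replicate 3, where 18.6% and 24% of all genes did.

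In a list of genes read out from ERK signalling, the kinase path below growth factor receptors, most were higher than in C18_5NC. Of 17 tested, 9 rose and 0 fell (median 0.24), beside 5.62% and 7.87% of all genes, and 10 rose and 1 fell without replicate 3, beside 18.6% and 24%. The library medians were 0.24, 0.20 and 0.26. Etv4, a transcription factor that ERK activates, had 3.40, 3.73 and 3.63 RPKM in C18_5NC and 6.37, 5.88 and 5.25 in C18_5251OV (0.57 ± 0.08, limma adjusted p = 0.0063), and it alone of the list kept its call in all 6 fits that left out a library. Fosl1, an AP-1 subunit, stood at 1.61, 1.98 and 1.58 RPKM in C18_5NC and 3.44, 3.77 and 2.70 in C18_5251OV (0.66 ± 0.11, limma adjusted p = 0.011). Both genes had separate groups, with replicate 3 nearest to C18_5NC. The phosphatases Dusp4 (0.37) and Dusp6 (0.25), which switch ERK off, rose too, as did Ccnd1 (cyclin D1, 0.29), Myc (0.28), Phlda1 (0.38), Epha2 (0.24) and Ier3 (0.25). The feedback inhibitors Spry1 (0.22), Spry2 (0.24) and Spred1 (-0.20) did not pass the test. Egr1 and Fos, counted below with the immediate early genes, fell. In the cells with LV3, outside this comparison, mean RPKM of Etv4 was 31.3 in C18_3NC and 9.55 in C18_5251KD. That of Fosl1 was 31.0 and 0.98.

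The immediate early genes, which growth factors and stress induce within minutes, split. Of 20 tested, 7 rose and 3 fell, beside 5.62% and 7.87% of all genes, and 8 and 3 did without replicate 3, beside 18.6% and 24%. Atf3 had 19.8, 18.2 and 20.9 RPKM in C18_5NC and 27.5, 29.4 and 28.4 in C18_5251OV (0.51 ± 0.06, limma adjusted p = 0.0033). Dusp1 stood at 18.2, 18.6 and 20.9 RPKM in C18_5NC and 28.2, 27.9 and 27.3 in C18_5251OV (0.51 ± 0.06, limma adjusted p = 0.0033). Both rose by about the same step in each library. Egr1 went the other way, with 20.8, 21.6 and 21.7 RPKM in C18_5NC and 15.9, 15.1 and 15.9 in C18_5251OV (-0.43 ± 0.05, limma adjusted p = 0.0037). Fos (-0.34) and Klf10 (-0.30) also fell, while Jun (0.29), Btg2 (0.49), Klf2 (0.31), Maff (0.22) and Ier5 (0.21) rose.

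Genes of cholesterol synthesis were higher in part. Of 24 tested, 7 rose and 0 fell (median 0.15), beside 5.62% and 7.87% of all genes, and 12 rose and 1 fell without replicate 3, beside 18.6% and 24%. The library medians of 0.17, 0.15 and 0.15 were alike. Fdps, which makes farnesyl diphosphate, ran from 31.3 to 37.1 RPKM in C18_5NC and from 42.5 to 45.4 in C18_5251OV (0.39). Mvd (0.33), Dhcr7 (0.26), Srebf2 (0.23) and Sqle (0.20) also rose. None of the 7 kept its call with every library left out in turn.

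Targets of NRF2 and enzymes of glutathione metabolism gave 10 rises and 2 falls among 34 tested, beside 5.62% and 7.87% of all genes, and 16 and 2 without replicate 3, beside 18.6% and 24%. Gsta1, a glutathione S-transferase, had 20.2, 17.1 and 20.8 RPKM in C18_5NC and 37.1, 36.7 and 31.0 in C18_5251OV (0.82 ± 0.09, limma adjusted p = 0.0025). Pgd, of the pentose phosphate path, stood at 53.1, 55.8 and 56.8 RPKM in C18_5NC and 79.1, 77.0 and 70.8 in C18_5251OV (0.45 ± 0.05, limma adjusted p = 0.0035). In both genes replicate 3 was the lowest of the 3 libraries of C18_5251OV but above all of C18_5NC. G6pdx (0.36), Gsta4 (0.31), Ftl1 (0.28), Gstp1 (0.27) and Txn1 (0.22) rose, and the cystine transporter Slc7a11 and Gsta3 fell by 0.37 each. Nqo1 (0.12), Hmox1 (0.04), Gclc (-0.03) and Gclm (0.05), the best known NRF2 targets, were not called. Reads of the alpha glutathione S-transferases may be split among near-identical copies. The list median in replicate 3 was 0.04, against 0.18 and 0.13 in replicates 1 and 2.

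Matrix genes were lower in part. Of 34 collagens and other matrix proteins tested, 11 fell and 0 rose (median -0.15), beside 7.87% and 5.62% of all genes, and without replicate 3, 16 fell and 3 rose, beside 24% and 18.6%. The library medians were -0.14, -0.13 and -0.11. Bgn (biglycan), a small proteoglycan, had 70.0, 78.2 and 77.9 RPKM in C18_5NC and 56.5, 52.9 and 46.5 in C18_5251OV (-0.53 ± 0.07, limma adjusted p = 0.0057). Col5a2, a fibril-forming collagen chain, stood at 328, 323 and 327 RPKM in C18_5NC and at 252, 252 and 268 in C18_5251OV (-0.34 ± 0.05, limma adjusted p = 0.0053). Both genes kept their call with each library left out, and neither overlapped between the groups. Fbn1 (fibrillin-1, -0.34), Col12a1 (-0.40), Col6a1 (-0.22) and Col3a1 (-0.17) fell, while Col1a1, at 378 to 383 RPKM in C18_5NC and 405 to 437 in C18_5251OV, was not called (0.15, limma adjusted p = 0.063) but was called higher without replicate 3.

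Enzymes that build and cut the matrix gave 5 falls and 0 rises of 22, and 8 and 3 without replicate 3, beside 7.87% and 5.62%, and 24% and 18.6%, of all genes. Mmp2, a gelatinase, had 104, 103 and 104 RPKM in C18_5NC and 82.8, 76.2 and 73.5 in C18_5251OV (-0.42 ± 0.05, limma adjusted p = 0.0037). Timp3, an inhibitor of such enzymes, stood at 121, 127 and 126 RPKM in C18_5NC and 87.1, 90.9 and 101.5 in C18_5251OV (-0.42 ± 0.06, limma adjusted p = 0.0064). The lysyl hydroxylase Plod2 (-0.51), the cross-linking enzyme Lox (-0.38) and P4ha1 (-0.23) also fell. Mmp2 was lowest in replicate 3, and Timp3 was lowest in replicate 1. Of 20 laminin chains, integrins and other matrix receptors, 1 rose and 5 fell, beside 5.62% and 7.87% of all genes, and 4 rose and 10 fell without replicate 3, beside 18.6% and 24%. Lamc1, a laminin chain of most basement membranes, ran from 59.0 to 60.5 RPKM in C18_5NC and from 42.3 to 50.1 in C18_5251OV (-0.38), and Itgb1, the common beta subunit of the integrins, fell by 0.19.

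Focal adhesion and PI3K-AKT genes changed in both directions. Of 36 focal adhesion genes 2 rose and 5 fell (19.4% called), and 10 and 15 without replicate 3. Of 48 PI3K-AKT genes 4 rose and 5 fell (18.8%), and 8 and 17 without replicate 3, beside 13.5% and 42.6% of all genes. Akt1, a kinase of the path, rose (0.26). Bcl2l1, which protects cells from apoptosis, rose (0.35), and Rps6kb1 (-0.32), Pdpk1 (-0.30) and Foxo3 (-0.30) fell. Rock2, a kinase of the actin cytoskeleton, had 30.7, 32.8 and 31.8 RPKM in C18_5NC and 20.1, 21.6 and 29.7 in C18_5251OV (-0.42 ± 0.12, limma adjusted p = 0.043). It was clearly low only in replicates 1 and 2. The call of each of these genes was lost when at least 1 library was left out.

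Cell junction genes moved both ways. Of 39 tested, 6 rose and 5 fell (28.2% called, beside 13.5% of all genes), and 8 rose and 14 fell without replicate 3, where 18.6% and 24% of all genes did. Gja1 (connexin 43), the gap junction protein that couples Sertoli and germ cells, had 16.7, 16.5 and 16.9 RPKM in C18_5NC and 21.2, 22.8 and 23.9 in C18_5251OV. Its groups did not overlap, and replicate 3 was the highest. The log2 difference was 0.42 ± 0.06 (limma adjusted p = 0.0058), 0.38 without replicate 3 and 0.45 after correction for length and GC, and the call held with each library left out. Cldn15 (0.33), Jup (0.25), Nectin2 (0.25) and Perp (0.46) rose too. Jam2 (-0.47), Cxadr (-0.33), Alcam (-0.32), Vcam1 (-0.26) and Pard3 (-0.24), all adhesion or polarity proteins, fell.

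The study stained 11 junction and adhesion proteins in these cells, and 5 of their genes passed the filter on low values. Gja1 is given above. Vcam1 had 3.73, 3.79 and 3.49 RPKM in C18_5NC and 2.90, 2.95 and 2.83 in C18_5251OV (-0.26 ± 0.07, limma adjusted p = 0.043), with no overlap. Tjp1 (ZO-1), which ties tight junctions to actin, stood at 37.7, 40.9 and 40.0 RPKM in C18_5NC and 27.1, 29.6 and 38.3 in C18_5251OV, low only in replicates 1 and 2 (-0.33, limma adjusted p = 0.066, and -0.47 without replicate 3). F11r (JAM-A, -0.01) and Ctnnd1 (p120-catenin, -0.11) were not called. The other 6 were at or near 0 in every library, with highest values of 0.45 RPKM for Gja4, 0.24 for Ocln, 0.12 for Cadm2, 0.07 for Cdh1, 0.04 for Cldn11 and 0.03 for Dsg2.

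The PUR family holds 3 proteins that bind single-stranded DNA and RNA. Pura stood at 11.97, 12.3 and 13 RPKM in C18_5NC and 10.7, 10.6 and 10.8 in C18_5251OV, with no overlap (-0.20 ± 0.06, limma adjusted p = 0.049). Purb had 29.2, 32.1 and 30.7 RPKM in C18_5NC and 23.9, 24.2 and 33.3 in C18_5251OV, where replicate 3 was the highest of all 6 libraries (-0.19, limma adjusted p = 0.25, and -0.34 without replicate 3). Purg ran from 2.93 to 3.79 RPKM in C18_5NC and from 2.24 to 2.71 in C18_5251OV (-0.36, limma adjusted p = 0.043). After correction for length and GC the difference of Pura was -0.05 and that of Purb 0.02, and neither was called, while Purg stayed called (-0.39).

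The 10 largest rises among called genes with separate groups, predicted genes left out, were Tmem171, Eaf2, Gsta1, Nol9, Derl3, Manf, Selenos, S100a3, Creld2 and Sdf2l1. Eaf2, a transcription elongation factor, had 0.85, 1.29 and 1 RPKM in C18_5NC and 2.61, 3.02 and 2.74 in C18_5251OV (0.89 ± 0.10, limma adjusted p = 0.0027). Nol9, a kinase of ribosomal RNA processing, stood at 15.0, 14.4 and 13.8 RPKM in C18_5NC and 25.1, 26.7 and 24.7 in C18_5251OV (0.78 ± 0.06, limma adjusted p = 0.00021). Both were evenly high in the 3 libraries of C18_5251OV. Selenos, a membrane protein of ER-associated degradation, had 36.8, 35.5 and 35.4 RPKM in C18_5NC and 63.7, 63.4 and 56.9 in C18_5251OV (0.75 ± 0.06, limma adjusted p = 0.00021). Derl3, of the same degradation path, stood at 1.59, 2.02 and 2.13 RPKM in C18_5NC and 4.68, 4.05 and 3.29 in C18_5251OV (0.78). All of the 10 but S100a3 kept their call with each library left out.

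The 10 largest falls were less even. Besides C3, Irf7 and Ifi27l2a they were Lmbrd2, Ott, Pkhd1l1, Kcnt2, Rpl31-ps12, Arhgap5 and Alg10b. Lmbrd2 had 12.1, 13.3 and 13.4 RPKM in C18_5NC and 3.49, 3.66 and 10.5 in C18_5251OV (-1.16 ± 0.29, limma adjusted p = 0.033, and -1.60 ± 0.07 without replicate 3). Alg10b, which adds the last glucose to the N-glycan precursor, stood at 36.4, 40.9 and 39.0 RPKM in C18_5NC and 17.3, 19.8 and 33.5 in C18_5251OV (-0.75, and -1.03 without replicate 3). Arhgap5, a GTPase-activating protein, had 22.9, 25.6 and 24.7 RPKM in C18_5NC and 11.6, 11.7 and 20.1 in C18_5251OV (-0.76, and -1.002 without replicate 3). In these 3 genes replicates 1 and 2 were far below C18_5NC, and replicate 3 lay under its range but nearer to it. Ott and Rpl31-ps12 have near-identical copies that could share their reads, and their values are uncertain.

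Only 3 genes were called with an absolute log2 difference of at least 1, all lower: Lmbrd2, Ott and the predicted gene LOC102633156, which stood at 5.54, 3.20 and 2.09 RPKM in C18_5NC and 1.25, 0 and 0.35 in C18_5251OV (-1.60 ± 0.30, limma adjusted p = 0.016). Predicted, LOC and Rik genes made up 35 of the 1500 called genes with separate groups. Of 212 predicted Gm and LOC genes tested, 7 rose and 12 fell (8.96% called, beside 13.5% of all genes). Without C18_5251OV replicate 3, 18 rose and 63 fell, beside 18.6% and 24% of all genes. By the ratio of group means alone, with a mean of at least 1 RPKM in either group, 10 genes were at least 2 times higher and 15 at least 2 times lower.

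**Figure D3:**
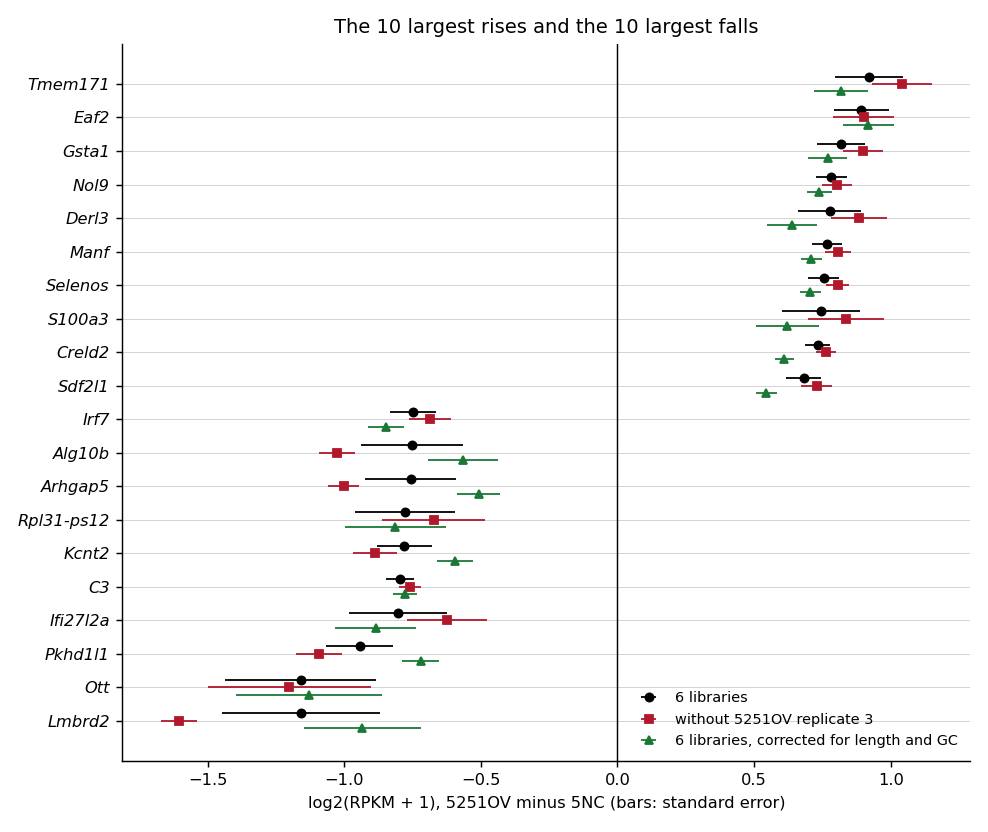
Log2 difference of C18_5251OV from C18_5NC (axis) for the 10 largest rises and the 10 largest falls, with standard errors, from 6 libraries (black), without C18_5251OV replicate 3 (red) and after correction for length and GC (green). The rises stay above 0.5 in all 3 fits, while Lmbrd2, Arhgap5 and Alg10b move from -1.16, -0.76 and -0.75 to -1.60, -1.002 and -1.03 without replicate 3.

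A second set of genes differed from C18_5NC in C18_5251OV replicates 1 and 2 and hardly in replicate 3. Of 76 cytosolic ribosomal proteins, 2 rose and 0 fell with all libraries, and 53 rose and 0 fell without replicate 3, while the share of all genes called higher went from 5.62% to 18.6%. Their library medians were 0.20, 0.13 and -0.03, and under quantile normalization the median of the 6 libraries turned from 0.10 to -0.00. Rpl41, one of the most abundant, had 3162, 3245 and 3470.3 RPKM in C18_5NC and 4073, 3865 and 3297 in C18_5251OV, so that replicate 3 fell within C18_5NC. Mitochondrial ribosomal proteins went from 5 to 43 rises of 78 without replicate 3, nuclear genes of oxidative phosphorylation from 10 to 50 of 89, and proteasome subunits from 8 to 33 of 48. Genes named Zfp, mostly zinc finger factors, gave 7 rises and 21 falls of 321 with all libraries (8.72% called, under the 13.5% of all genes) and 18 and 97 without replicate 3 (beside 18.6% and 24% of all genes), with library medians of -0.14, -0.11 and -0.02. Processing factors of ribosome biogenesis were between the patterns, with 11 rises and 0 falls of 53, 27 and 4 without replicate 3, and library medians of 0.10, 0.13 and 0.07.

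**Figure D4:**
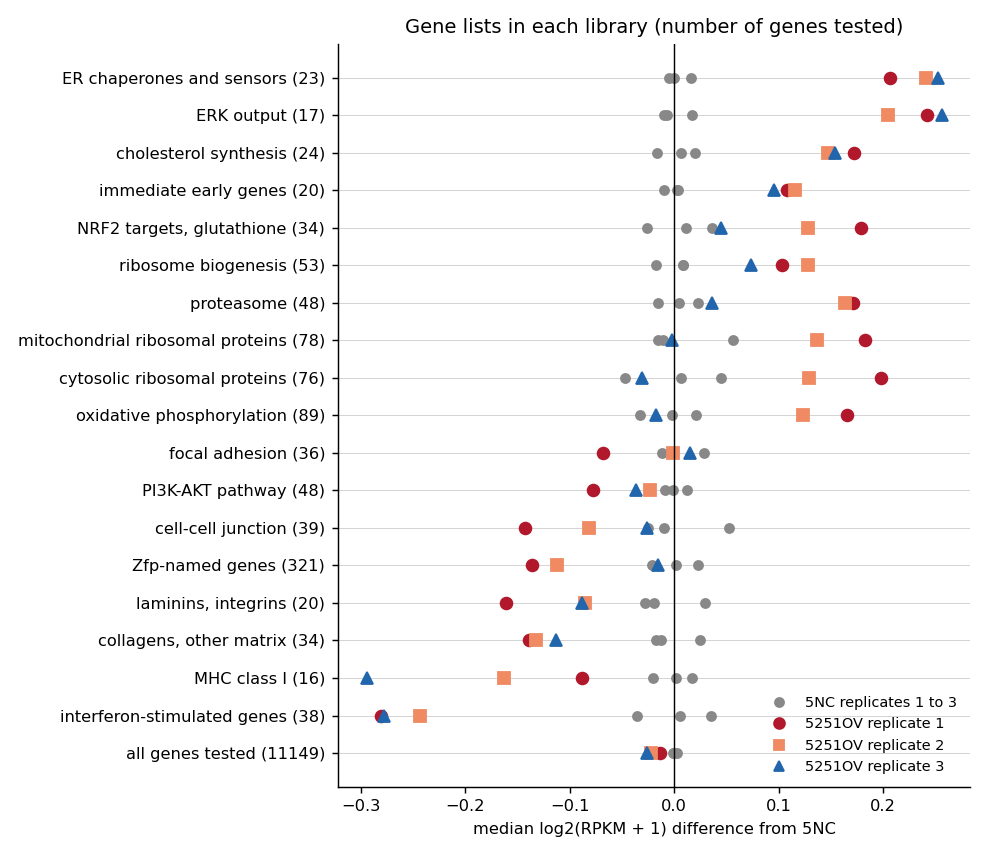
Median log2(RPKM + 1) difference from C18_5NC over the tested genes of each list (axis) in each library, with C18_5NC libraries against the other 2 of their group in grey and the number of genes in brackets. ER, ERK, cholesterol, matrix and interferon genes lie together in the 3 libraries of C18_5251OV, while for cytosolic ribosomal proteins replicates 1 and 2 lie at 0.20 and 0.13 and replicate 3 at -0.03.

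These differences went with the length and base composition of the transcripts. Over 11044 genes with a known length, the Spearman correlation of the log2 difference from C18_5NC with transcript length was -0.53 in C18_5251OV replicate 1, -0.43 in replicate 2 and -0.05 in replicate 3, and -0.20, 0.17 and 0.05 in the C18_5NC libraries. With GC content it was 0.50, 0.46 and 0.02 in C18_5251OV and 0.21, -0.32 and 0.09 in C18_5NC. Genes share libraries and sequence features, so these are descriptions. The median transcript was 3128 bases among all tested genes, 2181.5 among those called higher and 4540 among those called lower, and 2005 and 3161.5 among the 54 and 40 genes that kept their call with each library left out. Whether length and GC content set these calls was not tested. After a smooth trend on both was removed from each library, 784 of 11044 genes were higher (7.1%) and 1354 lower (12.3%), 19.4% in all, and 1225 of them were among the 1504. With replicate 3 left out as well, a fit added after seeing the data, 1148 were higher (10.4%) and 1764 lower (16%), 26.4% in all. With all 6 libraries and the trend removed, the ER list gave 14 rises and 0 falls, ERK output 10 and 0, cholesterol synthesis 9 and 1, matrix proteins 3 and 13, cytosolic ribosomal proteins 1 and 2 and oxidative phosphorylation 14 and 5.

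**Figure D5:**
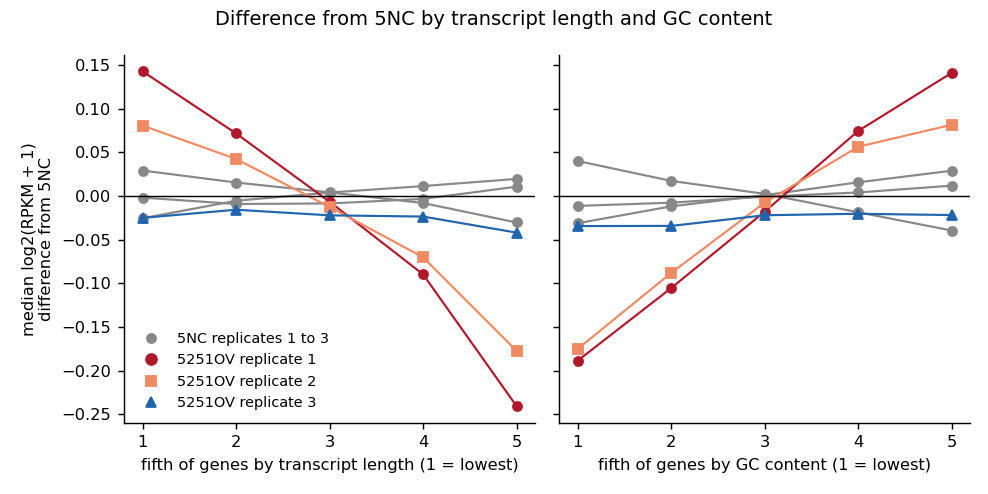
Median log2(RPKM + 1) difference from C18_5NC (vertical axis) of genes in 5 equal groups by transcript length (left) and GC content (right), for each library. Each C18_5NC library is set against the other 2 of its group. In C18_5251OV replicates 1 and 2 the line falls with length and climbs with GC content, and that of replicate 3 stays near the C18_5NC libraries.

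Of the 4745 genes called without replicate 3, that library lay beyond the C18_5NC range on the same side for 3005 (63.3%), inside it for 1315 (27.7%) and on the other side for 425. Over all 11149 genes it lay above the C18_5NC range for 25% and below it for 39.9%. Over the 4745 genes, the median gene showed in replicate 3 a share of 0.32 of its mean difference in replicates 1 and 2.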

How the data were processed

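C18-4 cells with lncRNA5251 in LV5 (C18_5251OV) and with LV5 alone (C18_5NC) were sequenced as 3 libraries each. Per the study's methods, the authors enriched mRNA with oligo(dT) beads, aligned reads with SOAPaligner and deposited 1 table of RPKM values per gene for all 12 libraries. Build, annotation and counting rules are not given in the sources used here, and the table gives no counts or depth. All columns of values belong to a sample. RPKM was filtered (at least 1 in at least 3 of the 6 libraries), and log2(RPKM + 1) was fitted across all genes with limma 3.58.1 (R 4.3.3, eBayes with an intensity trend) on the 6 libraries, with Benjamini-Hochberg adjustment. With a pseudocount of 1 the difference of a low gene is understated. Single summed values were compared by two-sided exact permutation tests. Lists were described by counts and medians, with no set test. Transcript length and GC content came from GENCODE M21 (99.1% of tested genes), promoters from RefSeq on GRCm38.p6.

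The comparison, the 49 gene lists and the members were chosen with earlier results of these data known. Named genes were the 10 largest rises and falls among called genes with separate groups, at most 5 called genes per list, the genes of stained proteins and the PUR family, the most abundant members of lists with few calls, and every called gene with an absolute log2 difference of at least 1. Other list members are named to complete a list, and the complement genes after their values were seen. The fits were tested on simulated data. Alternatives covered the pseudocount, the filter, scaling, library weights, the variance trend, the threshold, all 12 libraries, a replicate block, length and GC, and each library left out. Removing length and GC trends together with C18_5251OV replicate 3 was added after seeing the data. Some named genes are not reported here.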

Additional observations from a re-analysis of the deposited data

How the results depend on the processing

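The counts of calls depended on the processing. Against 627 genes higher and 877 lower in the 6 libraries, no filter on low values gave 236 and 254, library weights 3128 and 4022 (the weights ran from 0.151 to 25.4 and did not converge), no intensity trend 416 and 716, all 12 libraries 925 and 1594, quantile normalization 718 and 571, correction for length and GC 784 and 1354, and that correction without C18_5251OV replicate 3 gave 1148 and 1764. With an absolute log2 difference of at least 1 the counts were 0 and 3, with an adjusted p of at most 0.001 as well 0 and 0, and by a ratio of means of at least 2 they were 10 and 15. Leaving out 1 library gave 57 to 2074 higher and 54 to 2671 lower, with the highest of both without C18_5251OV replicate 3. Apart from the genes or libraries that a setting itself removed, the cause was not tested.

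Of 3436 values of single genes under the alternatives, 2481 stayed on their side of the threshold, where values that were not called could change sign, 906 lost the call and 47 gained it. The sign of 2 values reversed with a call on either side: with length and GC corrected and C18_5251OV replicate 3 left out, Ctsl, called there and not in the uncorrected 6 libraries, stood at 0.17, and Pura, called in the uncorrected 6 libraries, at 0.012. Of 688 list medians, 106 moved by more than the spread between libraries. Whether the replicate numbers pair the samples was not settled, since the values come from only 3 libraries per group. Same-numbered libraries correlated in their deviations at 0.17, -0.163 and 0.021, and not every library was closest to its own number. A replicate block gave 682 higher and 1106 lower. The table gives no depth, so no counting error could be set on low values.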

Other observations

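Some genes outside the groups above differed as well. Krt19, a keratin of simple epithelia, had RPKM of 220.01, 206 and 209 in C18_5NC replicates 1 to 3 and 364, 345 and 293 in C18_5251OV (log2 difference 0.65 ± 0.07, limma adjusted p = 0.003), and Krt80 rose as well (0.61). Of the smooth muscle genes, Acta2 (alpha smooth muscle actin) had 19.5, 21 and 23.1 RPKM in C18_5NC and 14.7, 13.5 and 12.7 in C18_5251OV (-0.60 ± 0.08, limma adjusted p = 0.0038), and Myl9, a myosin light chain, fell by 0.52 on the log2 scale. In these genes the groups did not overlap. Actb rose (0.28). Of the 24 tested actomyosin and smooth muscle genes, 1 rose and 4 fell, beside 5.62% and 7.87% of all genes. Without C18_5251OV replicate 3, 8 rose and 5 fell, beside 18.6% and 24%. The log2 difference was positive for 16 of the 24, and their median turned from 0.03 to -0.01 under quantile normalization. Txnip and Arrdc4, arrestin-like genes that respond to glucose, fell by 0.38 and 0.55. Txnip ran from 57.7 to 59.7 RPKM in C18_5NC and from 44.2 to 45.2 in C18_5251OV. Apart from Acta2, Myl9 and Actb, which came from the actomyosin list, these genes were named after their values were seen.

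The lists in this paragraph are to be read beside 13.5% of all genes called, and 42.6% without C18_5251OV replicate 3. Among 20 glycolysis genes 4 rose and 0 fell (20% called), and 10 and 0 without that replicate. The 4 were Pkm (0.26), Pfkl (0.26), Pgam1 (0.22) and Ldha (0.20). Of 28 heat shock proteins and other chaperones outside the ER, 6 rose and 1 fell (25%), and 13 and 3 without replicate 3. The small heat shock protein Hspb1 rose (0.40) and the inducible Hspa1b fell by 0.50 on the log2 scale. Of 21 growth factor receptors and binding proteins tested, 0 rose and 4 fell (19%), and 2 and 7 without replicate 3, both near the share of all genes. The 4 include the insulin receptor Insr (-0.35), Igf2r (-0.31) and the oncostatin M receptor Osmr (-0.35). Of 26 genes of the WNT path, 2 rose and 3 fell (19.2%), and 4 and 8 without replicate 3, again near the share of all genes, with the ligand Wnt4 (0.50) and the feedback gene Axin2 (0.41) higher and the receptors Fzd4 (-0.39) and Lrp6 (-0.38) and the scaffold Apc (-0.48) lower.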
